A study of Mus musculus with 32 samples.

Results

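The machinery that turns an active Gs-coupled receptor into cAMP and reads it out was followed through 40 genes in the hypothalamus of mice lacking the receptor Gpr101. The 40 genes were chosen by symbol, for what their proteins do, from the 55401 genes in the deposited table. Their mRNA levels in knockouts lay close to those of wild-type littermates: none passed the test for genotype on either diet, and every 95% interval lay within 1.2-fold of wild type. The genes comprise 3 G protein subunits, 8 adenylyl cyclases, 2 catalytic and 4 regulatory subunits of protein kinase A (PKA), 4 inhibitors and anchors of PKA, 3 other cAMP effectors, 9 phosphodiesterases and 7 genes of the CREB family and its coactivators.

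Gpr101 is an orphan receptor that couples to Gs. When such a receptor is active, the Gs alpha subunit stimulates adenylyl cyclase, cAMP releases the catalytic subunits of PKA from their regulatory subunits, and PKA phosphorylates CREB, which then recruits coactivators at cAMP response elements in promoters. Phosphodiesterases end the signal by hydrolysing cAMP. In hypothalamic neurons the pathway lies downstream of the melanocortin receptors and other peptide receptors that control feeding.

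The hypothalamus was taken from 32 male C57BL/6NTac mice, each giving 1 RNA-seq library. The groups were hemizygous Gpr101 knockouts on a high-fat diet (KO_HFD, 9 mice), wild-type littermates on that diet (WT_HFD, 8 mice), hemizygous knockouts kept on control diet (KO_CD, 8 mice) and their wild-type littermates on it (WT_CD, 7 mice). The labels name no tissue-specific deletion. All mice ate chow up to 7 weeks of age, and the high-fat groups then received a diet with 60% of its kcal from fat. Age followed diet: 1 KO_HFD, 1 WT_HFD, 5 KO_CD and 6 WT_CD mice were 149 days old, and the other mice were 150 days old.

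Reads on genes ranged from 25.3 M to 34.2 M per library with a median of 27.7 M reads, so that the 40 genes were measured with 296 to 31842 reads in a library. Gpr101 itself had 0 or 1 read in each KO_HFD library and 0 reads in every KO_CD library, against 2471 to 3472 reads in WT_HFD and 2605 to 3145 reads in WT_CD libraries. The hypothalamic peptide genes Pomc, Hcrt, Pmch, Avp and Oxt and the transcription factor gene Nkx2-1 were abundant in all 32 libraries, at lowest 927 normalized counts for Nkx2-1. Of the other hypothalamic markers, Trh and Cartpt had at lowest 1862 and 3107 normalized counts. Agrp, Npy and Sim1 lay lower, at lowest 62.6, 185 and 453 normalized counts. A normalized count is a read count divided by the size factor of its library. In whole tissue, fewer cells of a type and less RNA per cell cannot be told apart.

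All 40 genes were well above the filter on low values, a normalized count of at least 10 in at least 7 libraries. Levels are compared between genes as RPKM, reads per kb of exon scaled to the reads on genes of the library, and all means of levels are over the 32 mice with their SD. Subunits of PKA had the highest levels. The regulatory subunit genes Prkar1a, which is widely expressed, and Prkar1b, known as the neuronal form, led with 213 ± 4.19 and 175 ± 5.01 RPKM. The catalytic subunit genes Prkaca and Prkacb followed with 125 ± 4.69 and 86.2 ± 1.95 RPKM, with the G protein beta subunit gene Gnb1 between them at 105 ± 2.35 RPKM. The order ran from Prkar1a through Prkar1b, Prkaca, Gnb1 and Prkacb to the PKA inhibitor gene Pkia and the cAMP-modulated channel gene Hcn2. Pkia had 61.9 ± 2.15 RPKM and Hcn2 42.7 ± 2.50 RPKM. Each step of this order was larger than the SDs of both neighbours added together. These SDs are between mice and do not cover the exon length by which reads are divided. Prkacb had 18840 to 25335 reads in a library over 8772 bases of exon. Prkaca had 7629 to 10498 reads over 2488 bases, so the step from Prkaca to Prkacb rests on length.

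The stimulatory alpha subunits lay lower. Gnas, which encodes Gs alpha, averaged 20.5 ± 0.98 RPKM, and Gnal, which encodes the related Golf alpha of olfactory and striatal neurons, 12.3 ± 0.384 RPKM. Both values are spread over long exon unions, of 11186 bases for Gnas with its alternative first exons and 11172 bases for Gnal, which lowers a level per kb. The type 2 regulatory subunit genes Prkar2b and Prkar2a, at 19.2 ± 0.695 and 18.5 ± 0.653 RPKM, did not differ beyond their spread from each other or from Rapgef4 at 18.7 ± 0.872 RPKM. Rapgef4 encodes Epac2 and Rapgef3 encodes Epac1, exchange factors that cAMP activates directly. Rapgef3 had 7.25 ± 0.392 RPKM.

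Among the cyclases, Adcy5, which Gi and calcium inhibit, was highest at 29.03 ± 1.04 RPKM, followed by Adcy2, which G beta-gamma stimulates, at 22.4 ± 0.602 RPKM and by Adcy6, the close relative of Adcy5, at 13.7 ± 0.519 RPKM. Adcy3, known from primary cilia of neurons, had 9.19 ± 0.357 RPKM. The calmodulin-stimulated Adcy1 had 7.08 ± 0.728 RPKM. Adcy7, Adcy9 and Adcy8 lay at 5.75 ± 0.527, 5.61 ± 0.383 and 5.26 ± 0.262 RPKM and did not differ from one neighbour to the next beyond their spread. Of the phosphodiesterases, the calmodulin-activated Pde1b was highest at 26.1 ± 1.098 RPKM and its paralog Pde1c lowest at 1.09 ± 0.0866 RPKM. The Pde1c level was the lowest RPKM of all 40 genes, but not beyond its spread from Pkib at 1.22 ± 0.111 RPKM. It is spread over an exon union of 20067 bases. In reads Pde1c was not the lowest, with 487 to 737 reads in a library. Pkib had 318 to 523, Atf1 326 to 496 and Crem 296 to 498 reads. The cAMP-specific Pde4a, Pde4b and Pde8b had 12.02 ± 0.695, 9.80 ± 0.275 and 9.61 ± 0.308 RPKM, and Pde10a, a dual enzyme abundant in striatum, 4.70 ± 0.301 RPKM. Crtc1, a CREB coactivator, had 12.8 ± 0.638 RPKM, above Creb1 at 4.21 ± 0.251 RPKM and the CREB-related Crem at 2.29 ± 0.221 RPKM.

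**Figure D1:**
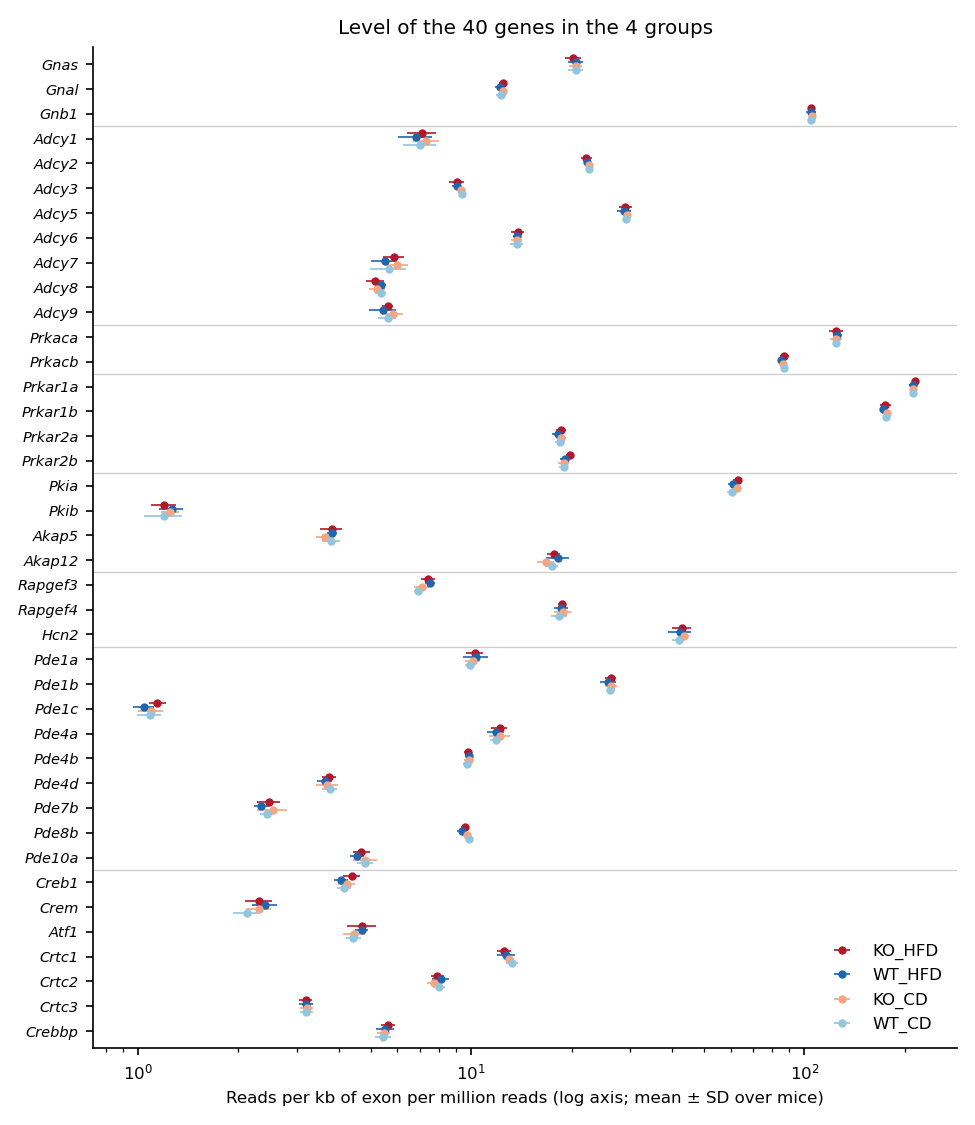
Mean level of each of the 40 genes in the 4 groups, in RPKM (log axis). Points are group means over 7 to 9 mice, bars are SD, and grey lines separate the roles. The 4 points of each gene lie close together, while levels between genes run from 1.09 RPKM for Pde1c to 213 RPKM for Prkar1a.

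The spread between mice was small. Over all 32 mice the coefficient of variation of the normalized counts ran from 1.85% for Prkar1a to 10.4% for Adcy1. Prkar1a had a lowest, median and highest normalized count of 25597, 26042 and 26423 in KO_HFD, 24874, 25417 and 26874 in WT_HFD, 25034, 25848 and 26460 in KO_CD, and 25297, 25584 and 26475 in WT_CD mice. All 4 ranges overlapped. Of the 8 WT_HFD mice, 6 lay below the lowest KO_HFD mouse, and the WT_HFD range reached above that of KO_HFD through replicate 6. KO_HFD over WT_HFD gave a log2 fold change of 0.027 (SE 0.016, limma adjusted p = 0.948).

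CREB acts through the cAMP response element, so the promoters of the machinery itself were searched for it. RefSeq promoter windows on GRCm38.p6, from 250 bases before to 50 bases after a listed start site, were given for 33 of the 40 genes, and were searched for the full element TGACGTCA, which reads the same on both strands, and for its core TGACG or, on the other strand, CGTCA. The full element contains the core on both strands. It stood in a window of 1 of the 33 genes, Prkar1a, against 2.03% of all 27025 genes with windows, and a core stood in windows of 15 of the 33 genes, against 23.0% of all genes. The members have more windows per gene than other genes, and counted by window the core stood in 19 of their 70 windows, against 20.8% of all 32851 windows. The 6 stretches of 30 bases below come from Gnas, Prkaca, the most abundant member Prkar1a and 3 members on which later results turn. They run 5′ to 3′ on the strand of the gene, with the element in capitals.
Prkar1a: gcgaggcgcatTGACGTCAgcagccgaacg
Gnas: gaagaggttggggCGTCAtcaggctggtta
Prkaca: agtctgcaactcgCGTCActcatccaggag
Prkar1b: ttagagggcggagTGACGggcaggaggacg
Rapgef3: agcttgaacccacTGACGtagtctcgggta
Pde8b: cgggagggaaagttggggTGACGcgcgctg

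The Prkar1a stretch is chr11:109650889-109650918 on the plus strand, and its element begins 49 bases before 1 listed start site and 38 bases after another. The Gnas stretch is chr2:174327698-174327727 (plus strand), 38 bases before a listed start site and 57 bases before another. A further Gnas window held a core at chr2:174329777-174329806, 216 bases before its start site. Which of these start sites belongs to the Gs alpha transcript was not examined. The Prkaca stretch is chr8:83972845-83972874 (plus strand, 120 bases before) and the Prkar1b stretch chr5:139150034-139150063 (minus strand, 49 bases before). The Rapgef3 stretch is chr15:97767841-97767870 (minus strand, 191 bases before) and the Pde8b stretch chr13:95223001-95223030 (minus strand, 38 bases after). A match of letters is a description and not a bound site.

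Genotype was compared first, since the machinery lies below the deleted receptor. On high-fat diet 0 of the 40 genes passed an adjusted p of 0.05 (limma, Benjamini-Hochberg over 19928 genes), against 0.00502% of all genes tested, which is Gpr101 alone. On control diet 0 of 40 passed, again against 0.00502%, and averaged over diets 0 of 40 passed, against 0.00502%. At an unadjusted p under 0.05 there were 2 of 40 genes on high-fat diet (5.15% of all genes), 1 of 40 on control diet (4.12%) and 3 of 40 averaged over diets (5.72%), all higher in knockouts. Counts this small moved with single mice. The count on high-fat diet was 5 without KO_HFD replicate 4, WT_HFD replicate 6 or WT_HFD replicate 8 and 4 without WT_HFD replicate 7. On control diet it was 0 without KO_CD replicate 3, KO_CD replicate 4, WT_CD replicate 3 or WT_CD replicate 6 and 2 without KO_CD replicate 1, KO_CD replicate 5 or WT_CD replicate 1. The averaged count was 5 without KO_CD replicate 4.

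The intervals bound, gene by gene, how large a missed difference in the RNA of whole tissue could be. On high-fat diet the 95% intervals, which are not adjusted for the number of genes, reached from 0.871-fold for the PKA inhibitor gene Pkib to 1.18-fold for Pde1c. On control diet they reached from 0.905-fold for the anchoring protein gene Akap5 to 1.19-fold for Crem. Averaged over diets, all 40 intervals were inside 1.2-fold and 37 inside 1.1-fold, with outer bounds of 0.933-fold for Akap12 and 1.13-fold for Adcy7. The median log2 fold change of the 40 genes was 0.017 on high-fat diet, 0.010 on control diet and 0.013 on average, against medians of -0.0021, -0.00028 and -0.0018 over all genes tested. Of the 40 genes, 24, 31 and 30 were above 0 in these comparisons, against 48.5%, 49.8% and 48.3% of all genes. Of 8 general neuronal marker genes, 5, 8 and 7 were above 0, with medians of 0.019, 0.032 and 0.025. Their summed level was 92599 to 100672 normalized counts in KO_HFD, 89093 to 100165 in WT_HFD, 94932 to 98924 in KO_CD and 88628 to 99522 in WT_CD mice, with none at 0. Markers of glia and ependyma were looked at in the same way. Averaged over diets, 0 of 7 astrocyte, 0 of 7 ependymal, 1 of 7 microglial and 8 of 8 oligodendrocyte markers were above 0, with medians of -0.033, -0.11, -0.046 and 0.052 and 0 called. The astrocyte markers summed to 68318 to 72311 normalized counts in KO_HFD, 67995 to 73963 in WT_HFD, 69438 to 75082 in KO_CD and 68800.3 to 76288 in WT_CD mice. The ependymal markers summed to 1723 to 2340.3 in KO_HFD, 1967 to 2375 in WT_HFD, 1874 to 2160.1 in KO_CD and 1832 to 2647 in WT_CD mice. These ranges overlapped between genotypes on both diets. The microglial markers summed to 5802 to 6353 in KO_HFD, 5734 to 7023 in WT_HFD, 5840 to 6551 in KO_CD and 6076 to 6303 in WT_CD mice. The oligodendrocyte markers summed to 125944 to 159269 in KO_HFD, 124326 to 156318 in WT_HFD, 130074 to 158737 in KO_CD and 126437 to 144690 in WT_CD mice. None of these markers was at 0, and the part of the marker lists in the sign of the 40 genes was not tested. The genotype comparisons averaged over diets and on each diet share their mice, so they are not separate evidence.

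**Figure D2:**
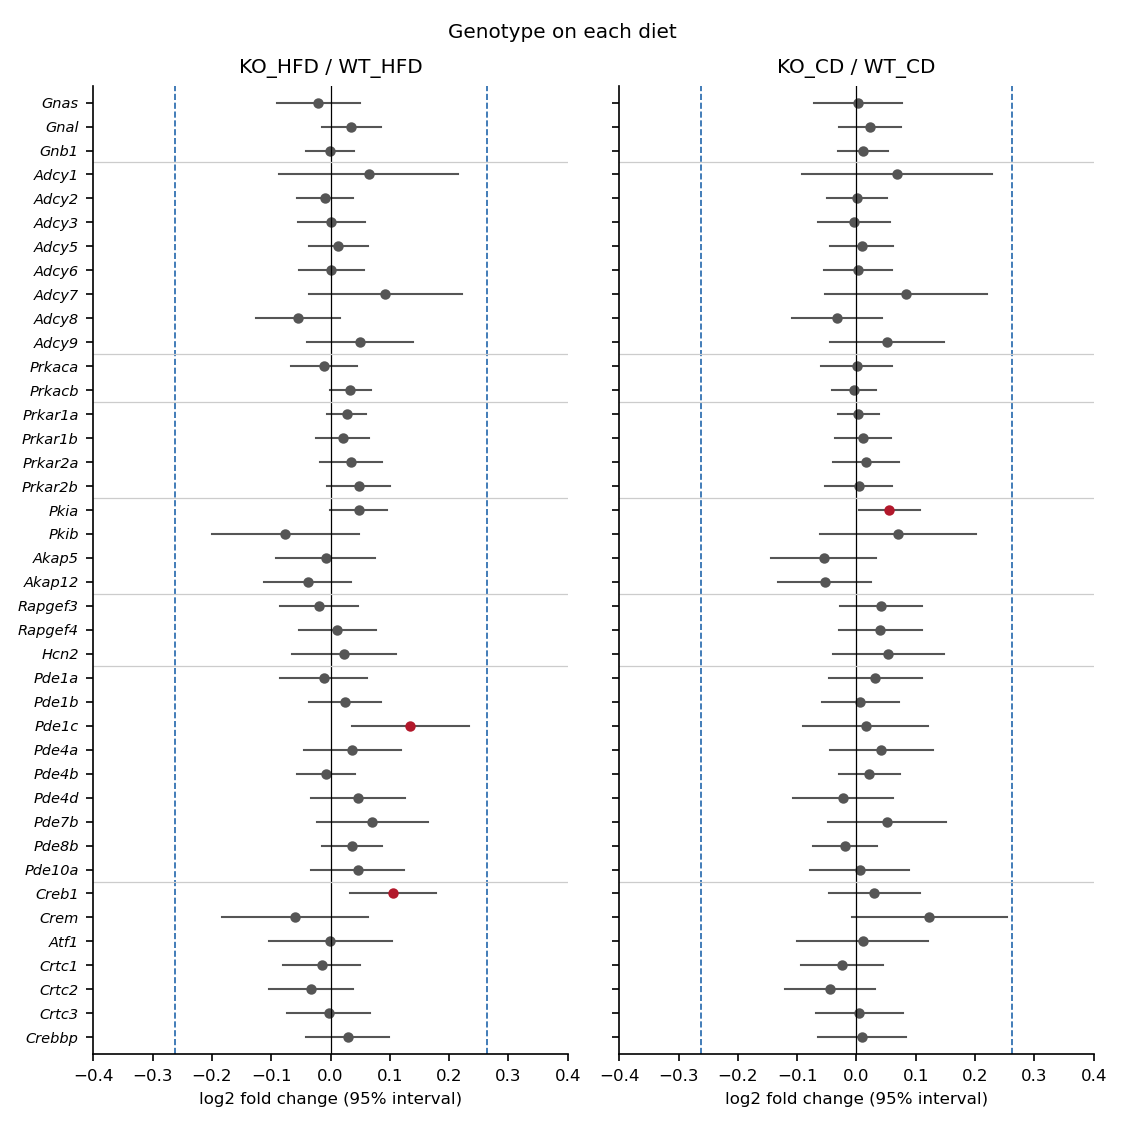
Log2 fold change of knockouts over wild type for each of the 40 genes on high-fat diet (left) and control diet (right), with 95% intervals. Red points have an unadjusted p under 0.05 and dashed lines mark 1.2-fold in either direction. All intervals of both panels lie between the dashed lines.

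The G protein subunits are the first step below the receptor. Gnas had a lowest, median and highest normalized count of 5551, 6357 and 6767 in KO_HFD, against 5760, 6509 and 6840 in WT_HFD mice. On control diet it had 6055, 6504 and 6891 in KO_CD, against 6073, 6465 and 6982 in WT_CD mice. The ranges overlapped almost fully on both diets. Its log2 fold change averaged over diets was -0.0094 (SE 0.025, limma adjusted p = 0.986), with an interval from 0.959-fold to 1.03-fold. The sign of this value turned with processing, to 0.0016 with voom quality weights, and to 0.0023 without KO_HFD replicate 8 and 0.0002 without WT_CD replicate 3. Gnal had a log2 fold change of 0.029 (SE 0.018) and Gnb1 of 0.0050 (SE 0.015) averaged over diets.

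None of the 8 adenylyl cyclases reached an unadjusted p of 0.05 for genotype on either diet. Adcy7 had the largest averaged value of all 40 genes, 0.088 on the log2 scale (SE 0.046, limma adjusted p = 0.867). It had 988, 1108 and 1227 normalized counts in KO_HFD, against 866, 1031 and 1202 in WT_HFD mice (lowest, median and highest), and 998, 1125 and 1280 in KO_CD, against 882, 1132 and 1223 in WT_CD mice. On control diet the median was thus the lower one in knockouts, and the ranges overlapped on both diets. Adcy8 had the lowest averaged value of the cyclases, -0.044 (SE 0.026).

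The kinase was likewise close between genotypes. Prkaca had 7921, 8722 and 9323 normalized counts in KO_HFD, against 8268, 8793 and 9152 in WT_HFD mice, and 8148, 8567 and 9444 in KO_CD, against 8310, 8734 and 8934 in WT_CD mice. On both diets the knockout range enclosed that of wild type. Its averaged log2 fold change of -0.0057 (SE 0.020) turned to 0.0090 without KO_CD replicate 1 and KO_HFD replicate 2, the libraries whose meningeal markers lay farthest from their group means. The 4 regulatory subunit genes had averaged values between 0.015 and 0.025, and none of the 4 reached an unadjusted p of 0.05.

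The PKA inhibitor gene Pkia had the lowest p of the 40 genes for genotype averaged over diets. PKI alpha binds free catalytic subunits and blocks their activity. Pkia had 6157, 6542 and 6885 normalized counts in KO_HFD, against 5963, 6425 and 6689 in WT_HFD mice, and 6288, 6574 and 6757 in KO_CD, against 6082, 6431 and 6566 in WT_CD mice. On each diet the knockout range sat slightly above the wild-type range and overlapped it. The log2 fold change averaged over diets was 0.051 (SE 0.017), and it did not pass the correction (limma adjusted p = 0.801, between 0.51 and 1.00 under the alternatives). Its relative Pkib had -0.0030 (SE 0.045), and the anchoring protein genes Akap5 and Akap12 had -0.032 (SE 0.030) and -0.046 (SE 0.026).

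The other cAMP effectors Rapgef3, Rapgef4 and Hcn2 had averaged genotype values of 0.011 (SE 0.024), 0.026 (SE 0.024) and 0.038 (SE 0.032), with no unadjusted p under 0.05 on either diet.

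All 9 phosphodiesterases had averaged genotype values above 0, from 0.0067 for Pde4b to 0.075 for Pde1c, and none passed the correction. Pde1c had 592, 633 and 701 normalized counts in KO_HFD, against 537, 584 and 647 in WT_HFD mice. All KO_HFD mice lay above the WT_HFD median, and the ranges overlapped. The log2 fold change on high-fat diet was 0.13 (SE 0.049, limma adjusted p = 0.948). On control diet Pde1c had 552, 600 and 686 normalized counts in KO_CD, against 533, 624 and 673 in WT_CD mice, a log2 fold change of 0.016 (SE 0.052) whose sign turned to -0.016 without WT_CD replicate 1 and was also below 0 without WT_CD replicate 3 and without each of KO_CD replicates 1, 2 and 8. The difference between the diets, 0.12 (SE 0.072), had a limma adjusted p of 0.999.

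Creb1, the transcription factor at the end of the pathway, had 1539, 1672 and 1818 normalized counts in KO_HFD, against 1406, 1586 and 1631 in WT_HFD mice. The upper KO_HFD mice lay above all WT_HFD mice, while the lower ones overlapped them. The log2 fold change was 0.11 (SE 0.036), with a limma adjusted p of 0.948, and between 0.674 and 1.00 under the alternatives. Averaged over diets the value was 0.068 (SE 0.026, limma adjusted p = 0.848). On control diet Creb1 had 1502, 1623 and 1774 in KO_CD, against 1508, 1586 and 1727 in WT_CD mice, with a log2 fold change of 0.030 (SE 0.038). That value ranged from 0.0085 with an age term to 0.049 without WT_CD replicate 7. Of the other genes of this group, Atf1, Crtc1, Crtc2, Crtc3 and the acetyltransferase gene Crebbp, none had an unadjusted p under 0.05 for genotype.

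**Figure D3:**
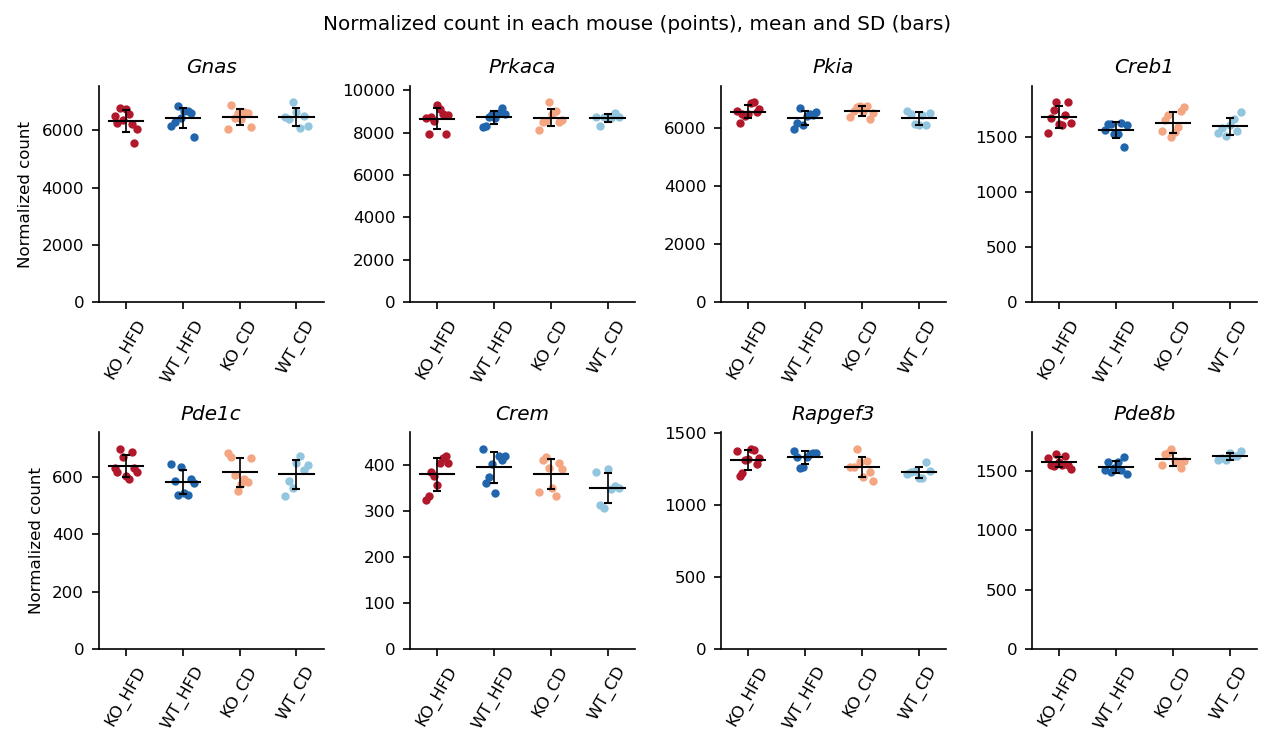
Normalized count of 8 genes in each mouse, by group. Points are mice, and black bars are the group mean and SD over 9, 8, 8 and 7 mice. The groups overlap for all 8 genes, including Creb1, whose KO_HFD mice reach 1818 and WT_HFD mice 1631.

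The diet was compared within each genotype and averaged over both. In knockouts 0 of the 40 genes passed (0.0351% of all genes), in wild type 0 of 40 (0.0251%) and on average 0 of 40 (0.336%). At an unadjusted p under 0.05 there were 0 of 40 in knockouts (7.04% of all genes), 5 of 40 in wild type (7.39%) and 6 of 40 on average (11.1%). The count in knockouts ran from 0 to 3 with 1 mouse left out, moving without any of 15 single mice, and was 3 with age as a term. The count in wild type was 3 without WT_CD replicate 2, 5 or 6 or WT_HFD replicate 3 or 8. The averaged count ran from 5 to 8 with 1 mouse left out. The median log2 fold change of the 40 genes was -0.0096 in knockouts, -0.0076 in wild type and -0.011 on average. In knockouts all 40 intervals lay within 1.2-fold, and in wild type 39, the exception being Crem, whose interval reached 1.24-fold. Blood markers moved with diet: 4 of 5 red blood cell genes were called higher on average, among them Hbb-bs by 0.62 (SE 0.14, limma adjusted p = 0.0381), and their summed level was 14641 to 35458 normalized counts in KO_HFD, against 9038 to 20283 in KO_CD, and 14621 to 39562 in WT_HFD, against 9586 to 15877 in WT_CD mice. Their part in the diet values of the 40 genes was not tested. Because age followed diet, values of members with age as a term are given where they moved by more than 1.5 times. Over all genes, the 67 called for diet on average became 12 with an age term. Values with that term are not given for the blood markers or other genes outside the 40.

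Rapgef3, the Epac1 gene, had the lowest p of all members in any comparison. It had 1200, 1320 and 1393 normalized counts in KO_HFD, against 1165, 1267 and 1386 in KO_CD mice. In wild type it had 1259, 1344 and 1373 in WT_HFD, against 1186, 1228 and 1297 in WT_CD mice. In wild type most high-fat mice lay above all control mice, and in knockouts the ranges overlapped almost fully. The log2 fold change averaged over genotypes was 0.085 (SE 0.024). It did not pass the correction (limma adjusted p = 0.106), and the adjusted p ran from 0.0582 to 0.216 under the alternatives. Within wild type the value was 0.12 (SE 0.035, adjusted p = 0.434) and within knockouts 0.055 (SE 0.033), and the interaction of -0.061 (SE 0.047) had a limma adjusted p of 0.999.

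The phosphodiesterase gene Pde8b pointed the other way in wild type. It had 1516, 1554 and 1644 normalized counts in KO_HFD, against 1527, 1587 and 1690 in KO_CD mice, and 1479, 1518 and 1622 in WT_HFD, against 1592, 1623 and 1667 in WT_CD mice. All but 1 of the WT_HFD mice lay below the lowest WT_CD mouse. The log2 fold change was -0.080 in wild type (SE 0.027, limma adjusted p = 0.526) and -0.024 in knockouts (SE 0.025), and averaged over genotypes -0.052 (SE 0.018, limma adjusted p = 0.249). Pde10a had 1589.5, 1656 and 1889 normalized counts in KO_HFD, against 1574, 1724 and 1948 in KO_CD mice, and 1538, 1622 and 1759 in WT_HFD, against 1589.7, 1705 and 1842 in WT_CD mice. Medians were lower on high-fat diet in both genotypes, and the ranges overlapped. On the log2 scale the difference was -0.046 in knockouts (SE 0.039) and -0.086 in wild type (SE 0.041, limma adjusted p = 0.66), which was -0.033 with age as a term. Averaged over genotypes it was -0.066 (SE 0.028, limma adjusted p = 0.38), and -0.021 with age as a term. Of the 9 phosphodiesterases, 8 were below 0 on average over genotypes. Of all 40 genes 25 were below 0, and of all genes tested 49.4% were above 0.

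Of the 8 cyclases, 7 were below 0 for diet averaged over genotypes (25 of all 40 genes). Adcy3 had the lowest p of them, with 1458, 1618 and 1689 normalized counts in KO_HFD, against 1582, 1643 and 1711 in KO_CD mice, and 1518, 1572 and 1660 in WT_HFD, against 1574, 1645 and 1691 in WT_CD mice. Medians were lower on high-fat diet in both genotypes and the ranges overlapped. The averaged log2 fold change was -0.058 (SE 0.021, limma adjusted p = 0.25). The value within wild type was -0.061, and with age as a term -0.092.

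In the CREB family, Crem had the widest swing. Its product includes ICER, a repressor that cAMP itself induces. Crem had 324, 385 and 420 normalized counts in KO_HFD, against 334, 392 and 419 in KO_CD mice, and 340, 407 and 436 in WT_HFD, against 306, 351 and 391 in WT_CD mice. The WT_CD mice were the lowest group, and every pair of groups overlapped. The diet value was -0.0042 in knockouts (SE 0.061) and 0.18 in wild type (SE 0.065, limma adjusted p = 0.554). For genotype it was -0.059 on high-fat diet, where it ranged from -0.0105 among mice of the same age to -0.090 without WT_HFD replicate 5, and 0.12 on control diet. Reads of the antisense gene Gm6225, which overlaps 472 exon bases of Crem, came to 16.04% of the Crem count, and the strand setting of the counting is not given in the sources used here.

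Crtc1 had 3578, 3925 and 4226 normalized counts in KO_HFD, against 3918, 4025 and 4336 in KO_CD mice, and 3383, 4047 and 4146 in WT_HFD, against 3933, 4102 and 4419 in WT_CD mice. Each high-fat group reached below its control group, in wild type through 1 mouse. The averaged diet value was -0.060 (SE 0.024, limma adjusted p = 0.314), -0.033 with age as a term and -0.044 without WT_HFD replicate 6.

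**Figure D4:**
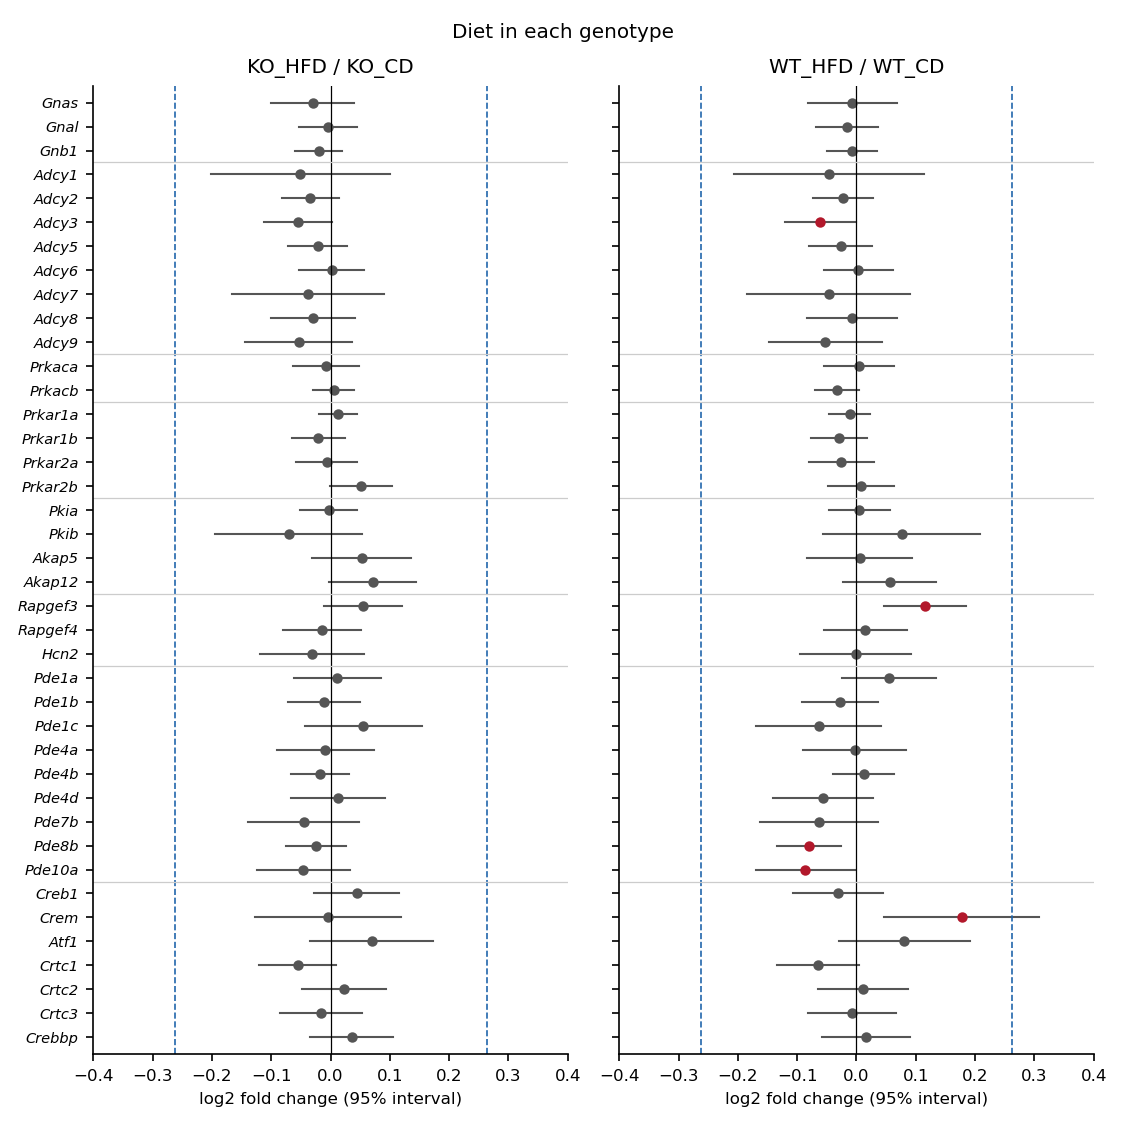
Log2 fold change of high-fat over control diet for each of the 40 genes in knockouts (left) and wild type (right), with 95% intervals. Red points have an unadjusted p under 0.05 and dashed lines mark 1.2-fold. Of the 5 red points, all in wild type, Rapgef3 and Crem lie to the right and Adcy3, Pde8b and Pde10a to the left, and 1 interval, that of Crem, crosses a dashed line.

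The interaction, the genotype difference on high-fat diet minus that on control diet, was passed by 0 of 40 genes (0% of all genes), and 1 of 40 had an unadjusted p under 0.05 (3.39% of all genes), a count that became 0 or 2 without any of 20 single mice. That gene was Crem, with -0.18 (SE 0.089, limma adjusted p = 0.999). The interaction intervals were wider, and 37 of 40 lay within 1.2-fold, the exceptions being Crem, Pde1c and Pkib.

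A dissection of hypothalamus can take in bordering striatum and meninges. Striatal markers were present at low levels and none of 13 tested was called in any comparison, with sums over 14 genes of 3590 to 4044 normalized counts in KO_HFD, 3687 to 4168 in WT_HFD, 3721 to 4080 in KO_CD and 3726 to 4494 in WT_CD mice. The 4 members known for striatal abundance, Gnal, Adcy5, Pde10a and Pde1b, did not pass a permutation test of covariation with the mean of these markers within groups. Their Pearson r were -0.19, 0.36, 0.27 and -0.44 over 32 mice. Of all 40 genes, 3 passed (Pde1c, Adcy8 and Pde4a), and 0 passed without WT_HFD replicate 4 and KO_CD replicate 1. Genes outside the 40 were not tested for covariation, so no share over all genes stands beside this count.

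Covariation with meningeal markers was examined after the data were seen. Sums over 8 meningeal fibroblast markers spanned a wide range, with a lowest, median and highest of 1441, 2236 and 6567 normalized counts in KO_HFD, 1223, 3040 and 6544 in WT_HFD, 1212, 1887 and 5299 in KO_CD, and 1417, 1555 and 3689 in WT_CD mice. The 2 members that moved most closely with them within groups were Akap12 and Prkar1b. Akap12, which encodes the anchoring protein gravin, had Pearson r = 0.74 and Spearman rho = 0.77 over 32 mice (permutation test, adjusted p = 0.0012 for each, over 40 genes). Without KO_CD replicate 1 and KO_HFD replicate 2, the mice farthest from their group means in these markers, r was 0.67 (permutation test, adjusted p = 0.0216). Prkar1b had r = -0.68 and rho = -0.60 (permutation test, adjusted p = 0.0012 and 0.0094), and r = -0.55 without those mice (permutation test, adjusted p = 0.0216). With all mice 12 of 40 genes passed, among them Gnb1 (r = -0.63), Prkaca (r = -0.61) and Pkia (r = -0.57), and without those 2 mice Akap12 and Prkar1b did. The share of all genes that covary with these markers was not tested, so the counts show no trait particular to the 40 genes. For genotype the 8 meningeal markers had a median of -0.20 on high-fat diet and 0.16 on control diet, 0 of them called.

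Akap12 was also the member of the PKA anchors with the lowest p for diet. It had 3003, 3178 and 3433 normalized counts in KO_HFD, against 2754, 3017 and 3329 in KO_CD mice, and 2933, 3240 and 3663 in WT_HFD, against 2971, 3140 and 3370 in WT_CD mice, with overlap in both genotypes. Its averaged diet value was 0.063 (SE 0.026, limma adjusted p = 0.361), 0.066 without the same 2 mice, KO_CD replicate 1 and KO_HFD replicate 2, and 0.085 with age as a term. All 8 meningeal markers were above 0 for diet, with a median of 0.45 on average over genotypes, 0 of them called. Their part in the Akap12 value was not tested. Rapgef3 had r = -0.12 with the same markers.

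**Figure D5:**
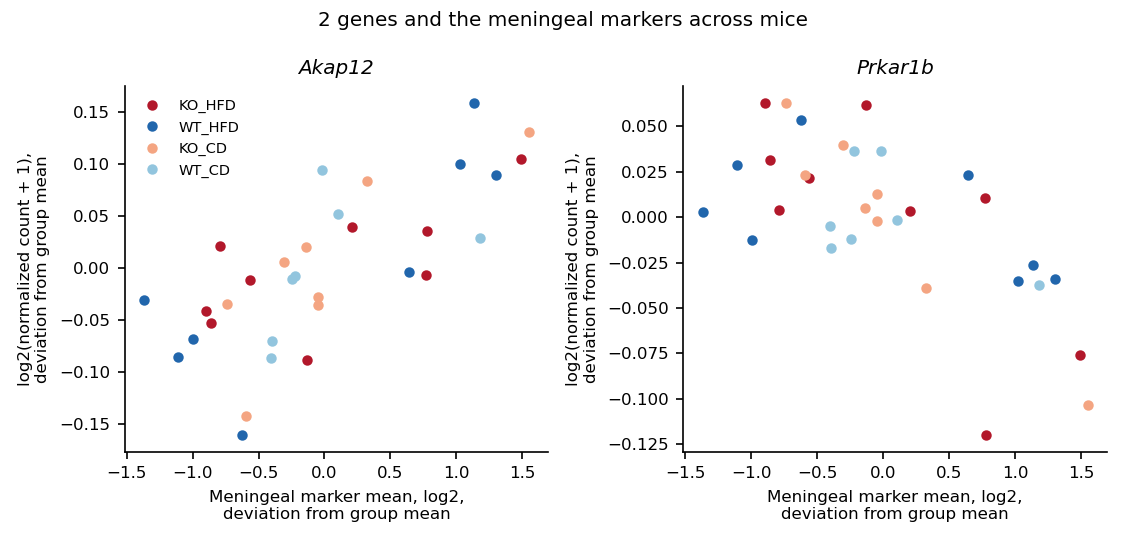
Deviation of Akap12 (left) and Prkar1b (right) from their group mean against the deviation of the mean of 8 meningeal markers, both on the log2 scale, for the 32 mice. Points are mice coloured by group. Akap12 runs upwards (r = 0.74) and Prkar1b downwards (r = -0.68).

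Around the 40 genes, 43 other genes of the pathway (further G protein, anchoring, phosphodiesterase, channel, kinase and CREB family genes) were tested. For genotype 0 of 43 passed on either diet (0.00502% of all genes on each). At an unadjusted p under 0.05 there were 2 higher and 0 lower on high-fat diet and 0 higher and 1 lower on control diet, against 5.15% and 4.12% of all genes. These were the anchoring protein gene Akap11 (0.056, SE 0.025) and the G protein gamma subunit gene Gng2 (0.048, SE 0.021), and on control diet Sik1 (-0.32, SE 0.12), a kinase that restrains the CRTC coactivators. For diet averaged over genotypes 0 of 43 passed (0.336% of all genes). At an unadjusted p under 0.05 there were 1 higher and 2 lower, against 11.1% of all genes. These were Akap13 (0.072, SE 0.029) above 0 and Gng7 (-0.065, SE 0.023) and Gnao1 (-0.032, SE 0.013) below 0. These genes were named after their values were seen.

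Genes known to be driven by CREB were looked at as the output of the pathway. Of 22 such genes 0 passed for genotype on either diet (0.00502% of all genes on each). On high-fat diet 0 of 22 had an unadjusted p under 0.05 (5.15% of all genes), with a median log2 fold change of -0.070 and a range from -0.24 to 0.10. On control diet 7 of 22 did (4.12% of all genes), all lower, with a median of -0.075 and a range from -1.05 to 0.21. Named after their values were seen, these were Fosb (-1.05, SE 0.32), Fos (-0.91, SE 0.31), Egr1, Nr4a1, Dusp1, Junb and Per1, genes known to respond within a short time to neuronal activity. Averaged over diets there were 6 (5.72% of all genes), the same without Per1, all lower, and 0 passed the correction. The list mixes immediate early genes, which many signals besides cAMP induce, with neuropeptide and granin genes. Whether the 7 genes lower on control diet vary together between mice was not tested, so they may not be 7 separate results. The mean log2 level of the list varied most in KO_CD mice, with an SD of 0.259, against 0.201 in WT_CD mice. Counts of this list with 1 mouse left out are not given. For diet averaged over genotypes 1 of 22 passed (0.336% of all genes). The granin gene Scg2 was lower on high-fat diet by 0.10 on the log2 scale (SE 0.018, limma adjusted p = 0.0025). It had -0.095 in knockouts and -0.11 in wild type, and its value with age as a term is not given. The immediate early gene Fos, the list's gene of lowest p above 0, had 0.46 (SE 0.21, limma adjusted p = 0.424), with 0.84 in knockouts (SE 0.29) and 0.085 in wild type (SE 0.31). Its interaction was 0.76 (SE 0.42, limma adjusted p = 0.999).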

How the data were processed

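Per the submitters' processing notes, the tools were STAR 2.7.6a, DESeq2 1.28.1, cutadapt 2.10, Trim Galore 0.6.2 and FastQC under R 4.0.2, with the build GRCm38. Counter, strand handling and annotation: not given in the sources used here. Values were deposited as log2 of whole reads divided by a library size factor, with a count of 0 listed as log2 of 0.1. Undoing the log returned whole reads for 100% of values (tolerance 1e-06 reads).

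Tests used limma 3.58.1 (R 4.3.3, statmod 1.5.0) on log2(normalized count + 1), which understates changes of low genes. All 4 groups entered 1 fit, with an intensity trend, robust moderation and no covariate, two-sided, at an adjusted p of 0.05. A normalized count of 10 in at least 7 libraries kept 19928 genes. The test was checked on simulated data.

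Groups came from the labels, with 1 mouse per library. Same-numbered mice were treated as unpaired, without a test of pairing. Names and lengths came from a GRCm38 annotation, which paired 55141 of 55401 identifiers. Covariation used 100000 permutations within groups, Benjamini-Hochberg over the 40 genes. The members and lists were chosen with earlier results of these data known, so no p of a group comparison is adjusted over a list alone. Full values are given for members with an unadjusted p under 0.05 and for Gnas and Prkaca, and every member could be named. Adcy7 and Prkar1a got full values after they were seen. Alternatives covered pseudocounts, filters, scaling, voom, age, a replicate block, variance moderation and each mouse left out.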

Additional observations from a re-analysis of the deposited data

Results flagged for a closer look

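In 11 of 160 sets of values (1 gene in 1 group), 1 mouse stood apart from the others by Dixon's test at 95%, which chance gives in about 1 set in 20. The mouse was the lowest of its group for Creb1 in WT_HFD replicate 7 (1405.58 normalized counts, the next 1528.86) and for Crtc1 in WT_HFD replicate 6 (3383.41, the next 3994.28), both genes described above. WT_HFD replicate 6 was also the lowest for Crebbp (1816.2) and the highest for Prkar1a (26874.15). Other lowest values were those of Prkaca in WT_CD replicate 2 (8310.47), Pkib in KO_HFD replicate 4 (321.88), Pde4d in WT_CD replicate 4 (1131.96) and Atf1 in KO_CD replicate 5 (320.85). Other highest values were those of Adcy1 in WT_HFD replicate 5 (3022.32), Adcy9 in KO_HFD replicate 2 (880.42) and Pde1b in WT_CD replicate 2 (4208.26).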

How the results depend on the processing

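In 46 other settings, 32 of which left out 1 mouse, none of the 40 genes passed an adjusted p of 0.05 in any of the 316 fits of a comparison. The median of the 40 genes moved by less than its SD between libraries of 0.018, which is larger than each of the medians themselves. A median that vanished would also have stayed inside this limit, so the limit cannot show that the medians held. The SD is that of single libraries and not the error of a difference between groups. The medians for genotype and for diet kept their sign. That of the interaction, 0.0052, ran from -0.0033 to 0.0131 with 1 mouse left out. Of 27 values of named genes, 24 kept their direction throughout. The 3 others were near 0. Gnas averaged over diets was 0.0016 with voom quality weights, 0.0048 with a replicate block and -0.0205 to 0.0023 with 1 mouse left out. Prkaca averaged over diets was 0.009 without KO_CD replicate 1 and KO_HFD replicate 2, the libraries farthest from their group means in meningeal markers, an alternative chosen after seeing the data, and -0.0142 to 0.0022 with 1 mouse left out. Pde1c on control diet was -0.0071 without those 2 libraries and -0.016 to 0.0399 with 1 mouse left out.

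Counts over all genes moved more. For genotype, 2 genes in place of 1 were called on control diet without a filter, and on high-fat diet and averaged over diets without trend and robust moderation. For diet in wild type, 5 genes became 8 with voom quality weights, 1 with an age term, 3 with a replicate block, 3 without trend and robust moderation, 2 with only the groups compared, and 1 to 7 with 1 mouse left out. For diet in knockouts, 7 became 4 when scaled to total reads, 3 without trend and robust moderation and 3 to 10 with 1 mouse left out. For diet averaged over genotypes, 67 became 43 without a filter, 12 with an age term and 41 to 87 with 1 mouse left out. Genes covarying with striatal markers went to 0 without WT_HFD replicate 4 and KO_CD replicate 1, against 3 with all mice. Those covarying with meningeal markers went to 2 without KO_CD replicate 1 and KO_HFD replicate 2, against 12. In each case the 2 libraries left out were those whose deviations from the group mean lay farthest from the median deviation. The mice whose removal moved a count by more than 1.5 times were WT_CD replicates 1 and 2 for diet in wild type, KO_CD replicates 3 and 6 and KO_HFD replicates 7 and 8 for diet in knockouts, and KO_CD replicate 5 and WT_CD replicates 1, 2 and 6 for the average. Prkaca turned without KO_CD replicate 1, KO_HFD replicate 2 or KO_HFD replicate 8. The cause was not tested.

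The replicate block, fitted because labels number the mice in each group, changed no member's call. Same-numbered mice had median correlations between -0.0053 and 0.12, with single values from -0.20 to 0.32, and pairing was not tested. A fit among mice of the same age was run for genotype but not for diet. The counts and intervals cover RNA of whole tissue, not protein, cAMP or single cell types.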

Other observations

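Genes steady between mice were not always the abundant ones. The coefficient of variation of the normalized counts over 32 mice was 2.99% for Pde4b at 9.80 RPKM and 2.89% for Adcy2 at 22.4 RPKM, and 6.21% for Hcn2 at 42.7 RPKM and 6.05% for Akap12 at 17.5 RPKM. Adcy1 and Adcy7 varied most among the cyclases, at 10.4% and 9.29%. Of the 40 genes, 10 share exon bases with another annotated gene, 9 with a gene on the opposite strand and 1 (Prkar1b) on the same strand. Crem is the one member whose overlapping gene had more than 10% of its count.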
